A study of Homo sapiens with 2 samples.

Results

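Complexes I to V of the respiratory chain are built mostly from subunits encoded in the nucleus, and the promoters of these genes were examined for Flag-ETV4 in a ChIP-seq experiment on A549 cells. The members were the protein-coding RefSeq genes on nuclear chromosomes whose symbols begin with NDUFA, NDUFB, NDUFC, NDUFS or NDUFV plus digits, are SDHA to SDHD, begin with UQCR, are numbered COX4 to COX8, or begin with ATP5. This rule gave 86 of 20037 protein-coding genes, with 36 in complex I, 4 in complex II, 9 in complex III, 17 in complex IV and 20 in complex V. NDUFA4, a subunit of complex IV, is listed by RefSeq as COXFA4 and is therefore not among them. The subunits encoded by the mitochondrial genome are outside the rule.

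A549 is an established human line from a lung adenocarcinoma. In the cells used here, ETV4 had been knocked down with an shRNA (A549-shETV4) and Flag-tagged ETV4 was put back by plasmid transfection, so the protein measured was a tagged and transfected one rather than the cell's own. The series holds 1 anti-Flag immunoprecipitate and 1 input, with no replicate of either, and the labels and the study's methods name different Flag antibodies. The data analysed are the 54389 peaks that the authors called on the immunoprecipitate, each with a fold enrichment over the control. The list holds no expression values, so neither the cell line nor the knockdown could be checked in it.

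The respiratory chain moves electrons from NADH (complex I) and succinate (complex II) through ubiquinol to complex III, on to cytochrome c, and to oxygen at complex IV. Complexes I, III and IV pump protons across the inner mitochondrial membrane, and complex V uses the gradient to make ATP. The nuclear genes for these subunits are scattered over the chromosomes. Many of their promoters are known to carry sites for NRF1, for YY1 and for the ETS factor GABP, whose DNA-binding chain is GABPA. ETV4 belongs to the PEA3 group of the same ETS family, and ETS proteins share the core GGAA. The PEA3 group and GABP both favour an extended form that begins with CCGGAA.

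The promoter sequences that bear on these genes are shown first. RefSeq promoter windows on GRCh38.p14 were available for 69 of the 86 members (82 windows, 1 per listed start). Each window runs from 250 bases before to 50 bases after a listed start. The 200 bases before the start are printed 5′ to 3′ on the strand of the gene, and capitals mark CCGGAA or its reverse complement TTCCGG. Sites that straddle or follow the start are not printed. Positions are counted from the listed start and are negative upstream of it. The first set gives 1 promoter from each complex. It is the one with the highest fold among the windows that held both CCGGAA and the highest point of a peak. These are NDUFA13 (chr19:19516025-19516224, + strand), SDHD (chr11:112086673-112086872, + strand), UQCRQ (chr5:132866442-132866641, + strand), COX8A (chr11:63974420-63974619, + strand) and ATP5MK (chr10:103396476-103396675, − strand).
NDUFA13: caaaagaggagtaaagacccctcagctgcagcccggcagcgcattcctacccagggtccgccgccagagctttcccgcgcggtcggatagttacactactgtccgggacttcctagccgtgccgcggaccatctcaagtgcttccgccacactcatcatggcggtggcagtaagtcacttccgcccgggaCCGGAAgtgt
SDHD: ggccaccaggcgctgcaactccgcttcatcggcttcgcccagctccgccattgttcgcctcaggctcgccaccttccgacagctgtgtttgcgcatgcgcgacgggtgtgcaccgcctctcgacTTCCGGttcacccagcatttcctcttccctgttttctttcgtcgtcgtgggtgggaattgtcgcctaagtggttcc
UQCRQ: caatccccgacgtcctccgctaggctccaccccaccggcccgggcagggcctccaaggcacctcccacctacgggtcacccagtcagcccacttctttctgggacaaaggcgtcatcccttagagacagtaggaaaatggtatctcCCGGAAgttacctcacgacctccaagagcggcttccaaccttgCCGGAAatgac
COX8A: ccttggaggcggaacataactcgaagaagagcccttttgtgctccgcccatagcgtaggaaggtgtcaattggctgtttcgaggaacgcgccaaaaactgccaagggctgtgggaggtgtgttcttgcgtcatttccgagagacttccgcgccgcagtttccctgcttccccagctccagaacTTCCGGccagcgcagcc
ATP5MK: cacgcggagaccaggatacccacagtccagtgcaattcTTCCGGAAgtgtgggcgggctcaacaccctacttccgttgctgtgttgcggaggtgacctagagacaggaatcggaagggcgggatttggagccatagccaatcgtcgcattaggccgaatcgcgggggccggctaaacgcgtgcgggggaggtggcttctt
In NDUFA13 the site began at position -10, and the summit of the peak, its highest point, was at 29. In COX8A the site began at -17 and the summit was at 11. In ATP5MK a palindromic pair of overlapping sites began at -162 and -160, and the summit was at -103. In SDHD the printed site began at -76 and the summit was at -49. In UQCRQ the sites began at -54 and -11, and the summit was at -146, 92 bp from the nearest of them.

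The second set shows promoters with several sites or with a second factor's core. NDUFS3 (chr11:47578874-47579073, + strand) held 4 copies of CCGGAA in 200 bases, and both printed copies of COX4I1 (chr16:85799495-85799694, + strand), at -159 and -133, lay upstream of its summit at -23. COX5B (chr2:97645862-97646061, + strand) also holds the NRF1 core gcatgcgc at position -136, in lower case.
NDUFS3: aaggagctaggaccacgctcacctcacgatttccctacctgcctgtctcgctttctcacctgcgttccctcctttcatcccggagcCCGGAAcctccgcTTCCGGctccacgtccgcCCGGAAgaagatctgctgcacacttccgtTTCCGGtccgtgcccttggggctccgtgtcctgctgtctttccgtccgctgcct
COX4I1: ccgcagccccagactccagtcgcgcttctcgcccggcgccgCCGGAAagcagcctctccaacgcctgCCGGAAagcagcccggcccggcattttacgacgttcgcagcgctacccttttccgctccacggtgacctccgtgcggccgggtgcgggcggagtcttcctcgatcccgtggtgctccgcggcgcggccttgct
COX5B: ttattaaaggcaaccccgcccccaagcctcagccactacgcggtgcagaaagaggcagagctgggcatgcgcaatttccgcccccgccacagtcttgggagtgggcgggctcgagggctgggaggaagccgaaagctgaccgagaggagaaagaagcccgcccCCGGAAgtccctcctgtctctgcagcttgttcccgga
The 4 copies in NDUFS3 began at -114, -101, -83 and -54, and the summit at -67 fell between the last pair of them.

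The third set shows cases in which motif and peak did not go together, or in which the start is not the outermost one. COX7C (chr5:86617741-86617940, + strand) held CCGGAA at -173 and had no peak. ATP5PF (chr21:25734905-25735104, − strand) is printed from a start inside the gene, and COX7A2 (chr6:75243802-75244001, − strand) likewise. NDUFB2 (chr7:140696508-140696707, + strand) had a peak with its summit at 16 and no CCGGAA. Its capitals mark the short core GGAA or TTCC instead.
COX7C: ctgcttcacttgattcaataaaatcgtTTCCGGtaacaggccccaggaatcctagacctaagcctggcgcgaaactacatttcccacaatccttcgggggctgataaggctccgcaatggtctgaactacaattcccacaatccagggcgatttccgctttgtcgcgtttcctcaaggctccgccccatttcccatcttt
ATP5PF: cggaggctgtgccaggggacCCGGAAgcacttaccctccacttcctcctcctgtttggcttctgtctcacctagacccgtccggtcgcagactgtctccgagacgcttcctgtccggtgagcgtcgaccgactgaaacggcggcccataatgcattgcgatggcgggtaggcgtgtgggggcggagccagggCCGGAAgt
COX7A2: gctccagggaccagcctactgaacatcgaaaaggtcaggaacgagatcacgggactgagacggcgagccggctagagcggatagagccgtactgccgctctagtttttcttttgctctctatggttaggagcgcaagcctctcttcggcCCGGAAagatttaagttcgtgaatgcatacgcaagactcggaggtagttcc
NDUFB2: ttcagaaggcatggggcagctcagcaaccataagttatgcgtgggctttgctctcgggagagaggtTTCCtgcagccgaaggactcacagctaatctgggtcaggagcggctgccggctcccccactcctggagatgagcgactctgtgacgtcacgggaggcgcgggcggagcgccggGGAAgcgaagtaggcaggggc

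Most of these genes had a peak nearby, a share not far from that of protein-coding genes in general, and most of the peaks were of modest fold. Of the 86 members, 61 (70.9%) had a peak within 1 kb of either end, against 62.1% of all protein-coding genes. The strongest peak of a member had a median fold of 9.30 (quartiles 6.33 and 15.1, range 2.76 to 67.2). Over the 12444 protein-coding genes with a peak the median was 17.6 (quartiles 9.33 and 30.6). The fold is the ratio of the fragments piled up at the summit to the level expected from the control, with 1 added to both.

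The order between members and background depended on the fold required. A fold over 5 was reached by 54 members (62.8%, background 57.5%), a fold over 10 by 29 (33.7%, background 45.2%) and a fold over 20 by 11 (12.8%, background 27.6%). Of the 61 members with a peak, 47 lay below the median fold of all genes with a peak. The median pileup was 31 fragments for the members and 54 over all genes with a peak. The median control level was 2.36 for the members and 2.03 over all genes, and the median peak width was 829 bp against 1062.5 bp. These are descriptions of 1 library, and genes are not replicates, so no test was made. The members' counts and medians are not shown to differ from those of other genes.

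**Figure D1:**
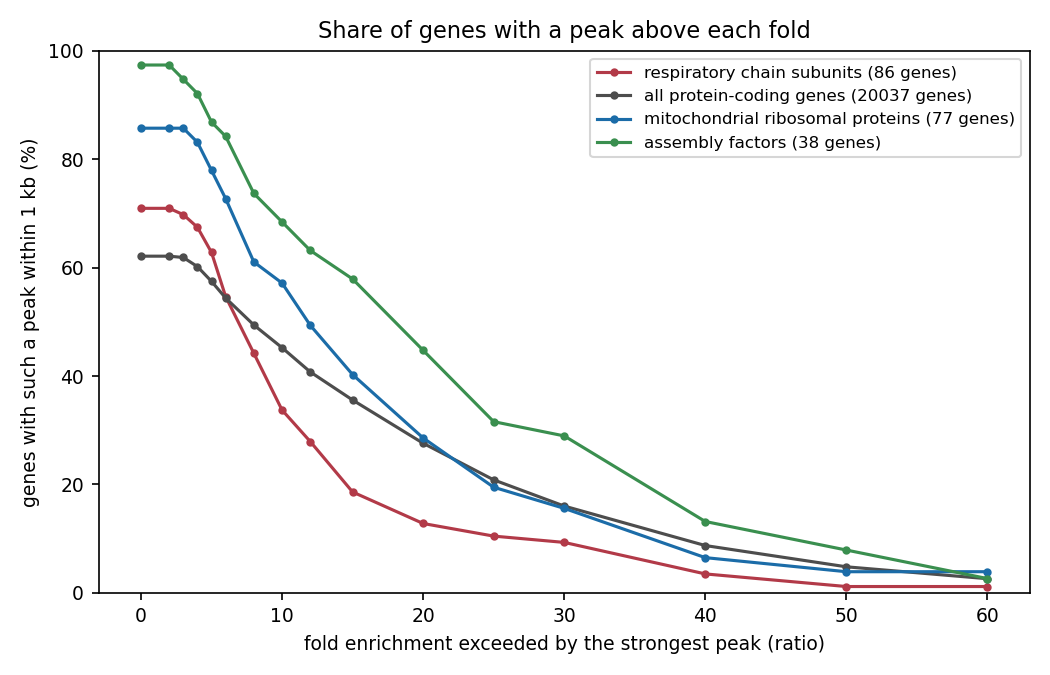
Share of genes (%, vertical axis) whose strongest peak within 1 kb of an end exceeded each fold enrichment (ratio, horizontal axis), for the respiratory chain subunits, all protein-coding genes, mitochondrial ribosomal proteins and assembly factors. The line of the subunits starts above that of all protein-coding genes, at 70.9% against 62.1%, and lies below it at a fold of 10, at 33.7% against 45.2%.

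The share of genes with a peak varied between the 5 complexes, and no test was made of it. All 4 genes of complex II had one, as did 18 of 20 (90%) in complex V, 25 of 36 (69.4%) in complex I, 6 of 9 (66.7%) in complex III and 8 of 17 (47.1%) in complex IV. The share over all protein-coding genes was 62.1%, close to those of complexes I and III. The median fold was 11.9 in complex I, 8.57 in complex II, 7.68 in complex III, 11.3 in complex IV and 8.87 in complex V. The ranges of fold of all 5 complexes overlapped. The highest was 67.2 in complex I, 10.6 in complex II, 15.9 in complex III, 48.8 in complex IV and 37.3 in complex V. No peak of complexes II and III exceeded a fold of 20, which 5 peaks of complex I, 2 of complex IV and 4 of complex V did. Complexes II and III had only 4 and 6 genes with a peak. Of all protein-coding genes with a peak, 44.4% exceeded that fold.

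**Figure D2:**
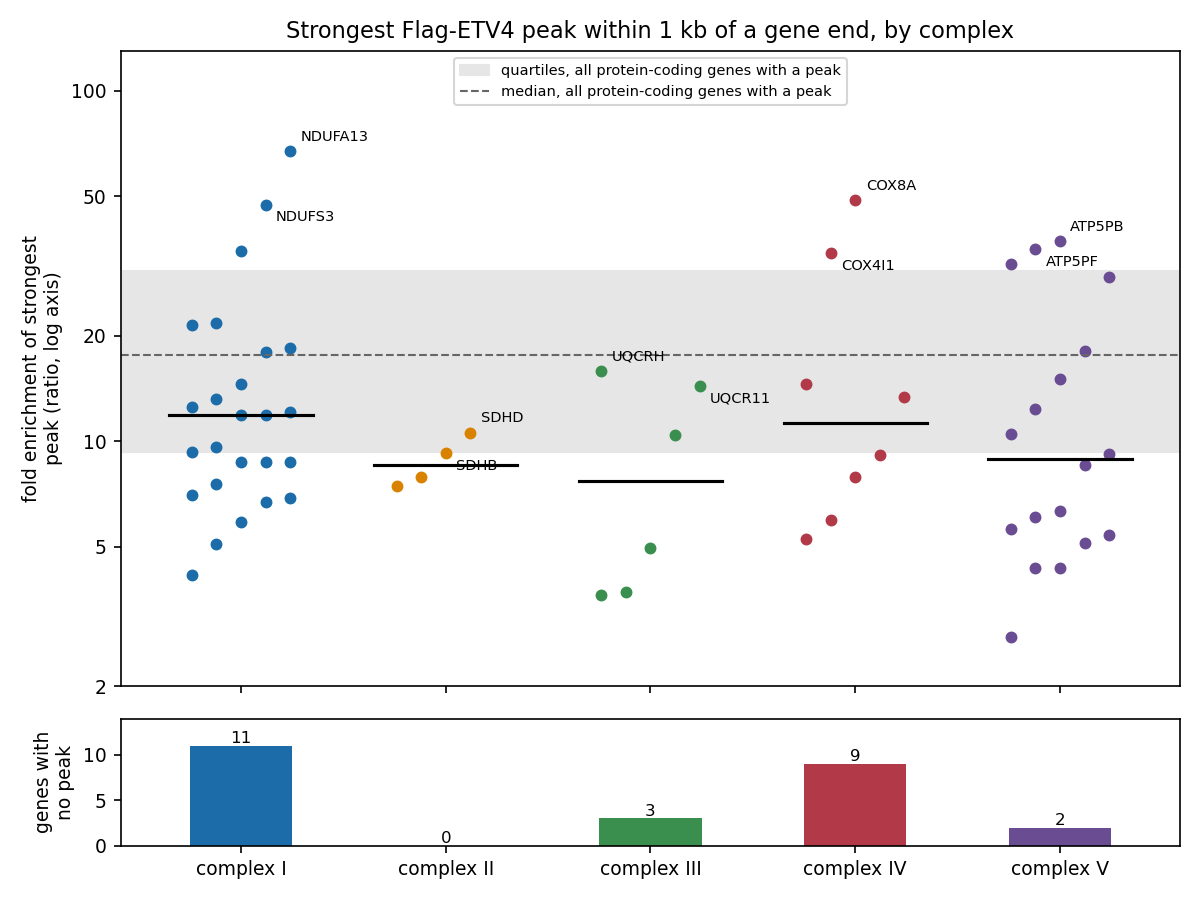
Fold enrichment (ratio, log axis) of the strongest peak of each gene with a peak, by complex, with the complex median as a black line, the quartiles of all protein-coding genes with a peak as a grey band and their median as a dashed line. The lower panel counts the genes with no peak, which were 11, 0, 3, 9 and 2 in complexes I to V.

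Complex I, the NADH dehydrogenase, joins a peripheral arm that takes electrons from NADH to a membrane arm that pumps protons. Its highest peak was at NDUFA13, an accessory subunit also known as GRIM-19. The peak (chr19:19515688-19516867) had a fold of 67.2, a pileup of 225 fragments (exact Poisson 95% interval 197 to 256) and a control level of 2.36. It stood at percentile 97.2 of the folds of all genes with a peak.

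Of the core subunits of complex I, which carry its redox centres and the ubiquinone site, 3 of 7 had a peak, and of the accessory subunits 22 of 29. This difference was not tested, and it depended on the window, since within 3 kb the counts were 7 of 7 and 24 of 29. The core gene NDUFS3 had the second highest fold of the complex, 47.3, from 174 fragments (149 to 202) over 2.70. NDUFS1, which carries iron-sulfur clusters near the NADH end, had 18.0 from 96 fragments (77.8 to 117) over 4.39. NDUFS7, which carries the cluster next to ubiquinone, had 9.66 from 38 fragments (26.9 to 52.2) over 3.04. Among the core genes without a peak within 1 kb, the nearest peak was 1254 bp from NDUFS8 (fold 18.0), 1500 bp from NDUFV1, which binds NADH and FMN (fold 4.68), and 1712 bp from NDUFV2 (fold 21.8).

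Among the accessory subunits the folds spanned the whole range of the complex. NDUFA7 had 34.8 from 113 fragments (93.1 to 136), NDUFB1 21.7 from 94 (76.0 to 115) and NDUFC1 21.4 from 71 (55.5 to 89.6). All 3 summits were over 200 bp from the listed start, at 367, 261 and -576. NDUFB9 had 18.4 from 123 fragments (102 to 147) over a control level of 5.74, so its pileup overlapped that of NDUFA7 while its fold was lower. NDUFB5 had a fold of 14.6, NDUFA1 13.2, NDUFA6 12.6, NDUFB3 12.1 and NDUFA8 11.9. NDUFA1 and NDUFB11 (fold 7.01) are the X-linked members of this complex. NDUFB6 differed from the rest in that its strongest peak, with a fold of 11.9 from 30 fragments, lay at its 3′ end, where the neighbour TOPORS starts. A second peak at its own start had a fold of 10.5 from 38 fragments, with the summit at -18.

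The remaining peaks of complex I had folds under 10. NDUFB10 had 9.30, NDUFA9 8.75, NDUFS6 8.74, NDUFB2 8.71, NDUFC2 7.57, NDUFS5 6.88 and NDUFB8 6.72. NDUFS4, an accessory subunit that is a known site of mutations in Leigh syndrome, had 5.87 from 24 fragments (15.4 to 35.7). NDUFV3 had 5.10 from 13 fragments (6.92 to 22.2) and NDUFB7 the lowest fold, 4.16, from 20 fragments (12.2 to 30.9) over a control of 4.05. The intervals of all these pileups overlapped each other. Accessory genes without a peak were NDUFA10 (nearest peak at 1325 bp), NDUFA5 (1884 bp), NDUFA2 (5269 bp), NDUFA3 (7756 bp), NDUFB4 (13339 bp), NDUFA11 (17019 bp) and NDUFA12 (65913 bp).

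Complex II, succinate dehydrogenase, also works in the tricarboxylic acid cycle, and its genes are known tumour suppressors. Its 4 peaks were close to each other in height. SDHD, a membrane anchor, had a fold of 10.6 from 31 fragments (21.1 to 44.0) with the summit at -49. SDHB, the iron-sulfur subunit, had 9.26 from 23 fragments (14.6 to 34.5) with the summit at 592. SDHA, the flavoprotein, had 7.88 from 17 fragments (9.90 to 27.2), and the anchor SDHC had 7.44 from 19 (11.4 to 29.7). The intervals of all 4 pileups overlapped, so no order among them can be read from these counts.

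Complex III passes electrons from ubiquinol to cytochrome c. UQCRH, the hinge protein, had a fold of 15.9 from 45 fragments (32.8 to 60.2), but that summit was at -1462, nearer to the start of the divergent LRRC41. A second peak at its own start had a fold of 9.77 from 31 fragments (21.1 to 44.0), with the summit at 21. The small subunit UQCR11 had 14.4 from 57 fragments (43.2 to 73.9), and UQCRQ had 10.4 from 41 (29.4 to 55.6).

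The other genes of complex III were near the bottom of the list or without a peak. UQCRC1, a core subunit, had 4.96 from 14 fragments (7.65 to 23.5). UQCRFS1, the Rieske iron-sulfur protein, had 3.64 although its pileup was 25 fragments (16.2 to 36.9), since its control level of 6.14 was among the highest of the members. UQCR10 had 3.72 from 9 fragments (4.12 to 17.1), the smallest pileup of all 61. The other core gene UQCRC2 and the ubiquinone-binding UQCRB had their nearest peaks at 23987 and 25790 bp. The retrocopy UQCRHL had none within 6104 bp.

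Complex IV, cytochrome c oxidase, held both some of the highest peaks and the largest share of genes without one. COX8A had a fold of 48.8 from 118 fragments (97.7 to 141) over 1.44, and COX4I1, a large nuclear subunit present in most tissues, had 34.4 from 130 (109 to 154) over 2.81. Their pileup intervals overlapped. COX6C followed with 14.6 from 48 fragments (35.4 to 63.6) and COX6A1 with 13.4 from 44 (32.0 to 59.1). COX6B1 had a pileup of 70 fragments (54.6 to 88.4), whose interval overlapped both of these, and a fold of 9.16 over the highest control level of the members, 6.75. COX5B had 7.89 from 38 fragments and COX5A 5.95 from 15.

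Part of the count without a peak in complex IV was made of isoforms with a restricted pattern of expression. Of the 6 isoforms known mainly from testis, muscle or lung, COX6B2 alone had a peak, with a fold of 5.26 from 11 fragments (5.49 to 19.7). COX4I2, COX6A2, COX7A1, COX7B2 and COX8C had none. Without these 6 genes the complex counted 7 of 11 (63.6%) with a peak and a median fold of 13.4. The 4 broadly used genes without one were all of the COX7 family. Their nearest peaks were at 3043 bp (COX7B), 5674 bp (COX7A2), 23165 bp (COX7C) and 25041 bp (COX7A2L, which is known from supercomplexes). For COX7A2 the outer end of the gene hid a promoter, because a peak with a fold of 8.67 from 32 fragments (21.9 to 45.2) lay 6497 bp inside the gene, with its summit at -24 from a listed start.

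Complex V, the ATP synthase, couples a catalytic head (F1) to a rotating membrane ring through a central and a peripheral stalk. The peripheral stalk held both ends of its range. ATP5PB had a fold of 37.3 from 162 fragments (138 to 189), with the summit at -321. That peak ended 47 bp before the gene, and its summit was nearer to the start of the divergent WDR77, at 113 bp. ATP5PF had 35.3 from 104 (85.0 to 126), at a start that GABPA shares. ATP5PD had 8.53 from 25 (16.2 to 36.9). ATP5PO, the lowest of all members, had 2.76 from 12 fragments (6.20 to 21.0) over 3.71.

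The F1 head had a peak at all 5 genes, with a median fold of 9.22. ATP5F1E had 18.1 from 65 fragments and ATP5F1D 15.1 from 35. ATP5F1A and ATP5F1B, the catalytic head's alpha and beta chains, had 9.22 from 30 fragments (20.2 to 42.8) and 5.63 from 17 (9.90 to 27.2). ATP5F1C, the gamma chain of the central stalk, had 6.33 from 16. Of the genes for the c-ring, ATP5MC1 had 10.5 from 50 fragments and ATP5MC3 5.13 from 18. ATP5MC2 had no peak at its outer end, but a peak with a fold of 8.66 from 30 fragments lay at listed starts 5093 to 6004 bp inside the gene.

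Of the small membrane subunits, ATP5MK had the highest fold, 32.1 from 92 fragments (74.2 to 113). ATP5MG had 12.3, ATP5ME 6.08 and ATP5MJ 5.40. ATP5MF had 4.36 from 21 fragments, and its read-through gene ATP5MF-PTCD1 counts the same peak a second time, so 60 distinct peaks stood behind the 61 members. ATP5IF1, the inhibitor that blocks ATP hydrolysis by the enzyme, had 29.5 from 71 fragments (55.5 to 89.6). The retrocopy ATP5MGL had no peak within 8263 bp.

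**Figure D3:**
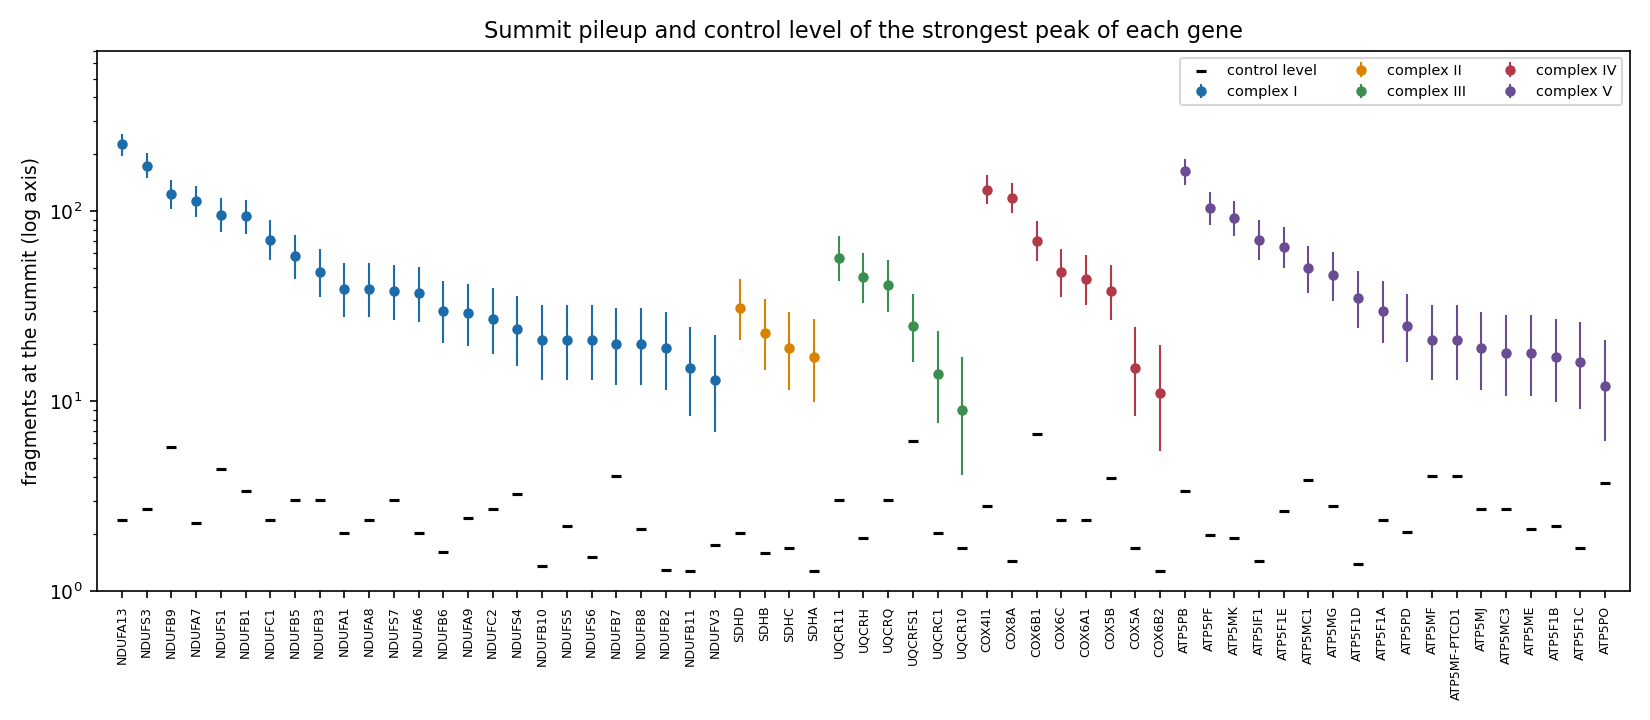
Fragments at the summit of the strongest peak of each of the 61 genes (log axis), with exact Poisson 95% intervals as vertical bars and the control level as a black dash, by complex. Pileups run from 9 fragments at UQCR10 to 225 at NDUFA13, and every interval lies above its control level.

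The members just inside it were NDUFA8, whose peak began 600 bp from the gene, UQCR10 (504 bp) and ATP5PO (154 bp), and the members just outside were NDUFS8 (1254 bp) and NDUFA10 (1325 bp). Within 3 kb of an end, 67 of 86 members had a peak, against 68.4% of all protein-coding genes. Complex I went from 25 to 31 of 36 in this way, and the counts of the other complexes stayed as they were. The direction of transcription was known for 50 members with a peak. Of these, 49 had the peak at the 5′ end and NDUFB6 had it at the 3′ end alone. The median distance between summit and nearest listed start was 199 bp, against 235 bp over all genes, and 15 summits (30%) were within 100 bp against 27.7%. Of the 50 summits, 26 (52%) were upstream of the start, against 41.3% over all genes.

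Counted at listed starts instead of outer ends, 52 of 69 members (75.4%) had a peak within 1 kb, against 64.4% of all protein-coding genes in the promoter table. The counts were 21 of 31 in complex I, 3 of 3 in complex II, 6 of 7 in complex III, 8 of 14 in complex IV and 14 of 14 in complex V.

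**Figure D4:**
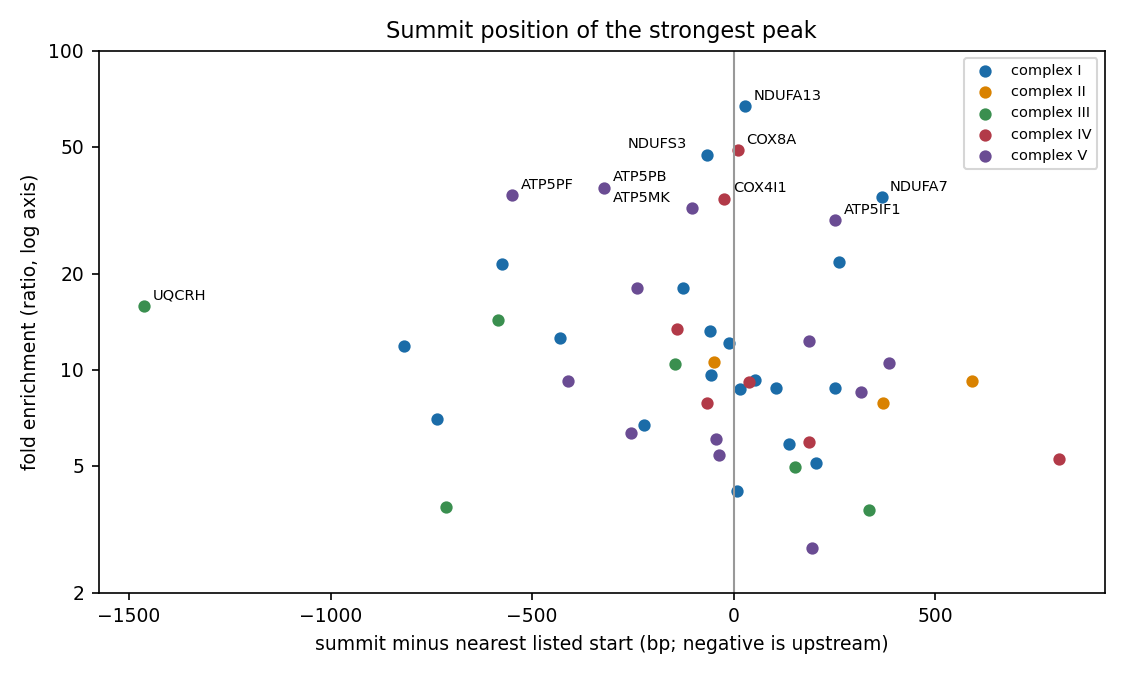
Position of the summit relative to the nearest listed start (bp, negative is upstream) against fold enrichment (ratio, log axis) for members whose direction is known. NDUFB6, whose strongest summit is at its 3′ end, is left out, and the 49 summits drawn have a median distance of 195 bp from the start.

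Many of the peaks could not be given to 1 gene. For 33 of the 61 members (54.1%) the strongest peak was also within 1 kb of an end of another protein-coding gene, against 29.8% of all genes with a peak. The share was 54.5% for mitochondrial ribosomal proteins and 54.1% for the assembly factors of the complexes. In 3 of these the other gene is a read-through over the same locus or its partner (NDUFC2, ATP5MF and ATP5MF-PTCD1). The count was 17 in complex I, 2 in complex II, 3 in complex III, 2 in complex IV and 9 in complex V. The peak interval covered the other gene's end in 23 (37.7%, against 21.97% of all genes with a peak). The median fold was 11.9 for shared peaks and 8.62 for the 28 others, against 18.6 and 17.1 over all genes with a peak.

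The sharing was mostly head to head. In 22 of the 25 pairs whose directions are both known, the genes were divergent, with 5′ ends 9 to 1046 bp from each other and a median of 166 bp. The share of divergent pairs over all protein-coding genes was not counted, so it is not shown to be particular to the members. In 5 of the 22 pairs (NDUFC1, NDUFS6, NDUFB11, UQCRQ and ATP5PF) the genes overlapped at these ends, and in the others a gap lay between them. The summit was nearer to the member's 5′ end in 10 of the 22 pairs and nearer to the partner's in 12. Of the 11 members with a fold over 20, COX8A and ATP5IF1 were the ones without a divergent partner. NDUFA13 lies 677 bp from TSSK6, NDUFS3 104 bp from KBTBD4, NDUFA7 121 bp from RPS28, a cytosolic ribosomal protein gene, and COX4I1 151 bp from EMC8. In complex V, ATP5PB lies 208 bp from WDR77, ATP5MK 151 bp from PDCD11 and ATP5F1A 158 bp from HAUS1. At NDUFA7 the summit was inside the gene, at 367, whereas at ATP5MK it was between both starts, at -103 from its own and -48 from that of PDCD11.

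ATP5PF and GABPA overlap head to head over 681 bp, so the single peak of 104 fragments cannot be assigned to a subunit of the ATP synthase or to the ETS factor known to regulate such subunits. NDUFS6 overlaps MRPL36, a mitochondrial ribosomal protein gene, by 27 bp, with a fold of 8.74. SDHD shares its peak with TIMM8B, an import chaperone gene. UQCRQ overlaps GDF9 by 9 bp. SDHA lies 167 bp from CCDC127 and ATP5ME 266 bp from MYL5. Whether Flag-ETV4 at these starts goes with transcription of either partner was not measured.

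The reference promoters of the members were searched for short motifs on both strands. The ETS motifs were the core GGAA, the extended form CCGGAA and the longer form CCGGAAGT. For other factors, the NRF1 core GCATGCGC and the YY1 core AAGATGG were searched. The 3 ETS motifs are nested, so a window with CCGGAAGT counts for each. A match says only that these letters are in the window. GGAA was in 96.3% of the 82 windows and in 95.1% of the 22199 windows of all protein-coding genes. CCGGAA was in 31 windows (37.8%, against 21.2%) and CCGGAAGT in 12 (14.6%, against 5.34%). GCATGCGC was in 15 (18.3%, against 3.74%) and AAGATGG in 19 (23.2%, against 6.04%). The median GC content was 59.7% in the members' windows and 62.3% in all windows.

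**Figure D5:**
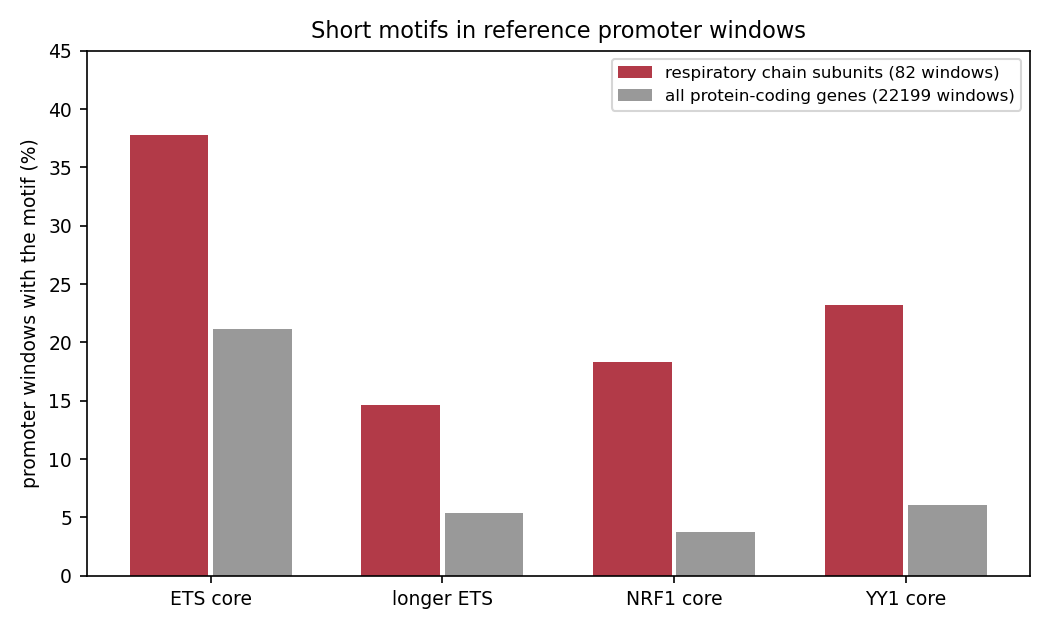
Share of RefSeq promoter windows (%, vertical axis) that hold each motif, for 82 windows of respiratory chain subunits and 22199 windows of all protein-coding genes. The share is higher for the subunits in all 4 motifs drawn, with 37.8% against 21.2% for the ETS core CCGGAA and 18.3% against 3.74% for the NRF1 core.

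Peak and CCGGAA were found together in many of these promoters. Counted by gene, CCGGAA was in the windows of 30 of 69 members (43.5%), against 26.6% of all protein-coding genes in the promoter table. It was in 28 of the 52 with a peak at a listed start (53.8%) and in 2 of the 17 without one (11.8%), namely COX7C and COX7B. Over all protein-coding genes the shares were 35.2% and 11.1%. All 12 members with CCGGAAGT had a peak, as did 91.9% of all 1105 protein-coding genes with it. The fold here is that of the strongest peak within 1 kb of any listed start. Its median was 15.1 for the 12 members and 20.4 over all those genes with a peak. That peak was not always the one over the motif's window. Over that window UQCRH had 9.77 in place of 15.9, and ATP5F1A 4.30 in place of 9.22. Where a window held both CCGGAAGT and the summit, the median was 10.6 for 9 members and 21.1 over all protein-coding genes. The 12 members were NDUFA13, NDUFS1, SDHD, UQCRH, UQCRQ, UQCR11, COX8A, COX5B, ATP5F1A, ATP5MK, ATP5PD and ATP5PF. In 25 windows the summit itself lay inside the window. Of these, 19 (76.0%) held CCGGAA, against 46.9% of the 4094 such windows of all protein-coding genes. The site and the summit were a median of 26 bp apart, against 29 bp over all genes. They were within 50 bp in 15 of the 19, against 1307 of the 1919 such windows of all protein-coding genes. The median fold was 10.6 for the 19 and 8.68 for the other 6.

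By complex, CCGGAA was in 7 of 31 genes of complex I (22.6%), against 26.6% of all protein-coding genes in the promoter table. It was in 3 of 3 genes of complex II, 4 of 7 of complex III, 8 of 14 of complex IV and 8 of 14 of complex V. In complex I, all 7 genes with it had a peak, and so did 14 of the 24 without it (58.3%). Over all protein-coding genes these shares were 85.1% and 56.9%. Members with a peak and no CCGGAA include NDUFA7 and ATP5IF1, whose folds of 34.8 and 29.5 were among the highest. In complex III the strongest peak within 1 kb of a listed start had a median fold of 12.4 for the 4 genes with CCGGAA. For the other 2 with a peak it was 4.34. The 4 include UQCRH, counted at 15.9 from the summit at -1462, and UQCRFS1, whose 3.64 was the lowest of the complex.

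The NRF1 core occurred beside CCGGAA in 8 members, which were NDUFS7, SDHB, SDHD, COX5B, COX6A1, ATP5F1C, ATP5ME and ATP5PF. Their folds ran from 6.08 at ATP5ME to 35.3 at ATP5PF. The 12 members with GCATGCGC and a peak had a median fold of 9.46, against 9.85 for the 40 with a peak and without it. The YY1 core was in 13 members with a peak at a listed start and in 5 without (NDUFA3, NDUFA5, NDUFA12, UQCRC2 and COX7C). A peak was thus at 72.2% of members with this core and at 76.5% of those without it. The shares over all protein-coding genes were 72.2% and 63.7%. The core lay close to the start in most of the windows that held it, as at -1 in ATP5PB and at 14 in NDUFA7. Of the 69 members, 24 held none of CCGGAA, GCATGCGC and AAGATGG. Neither this count nor that of the 8 members with both motifs was made over all protein-coding genes. Neither is therefore shown to be particular to the members.

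The other genes of the pathway were listed for comparison. The assembly factors, which build the complexes and are not part of them, had a peak at 37 of 38 genes (97.4%, background 62.1%). Their median fold was 17.8, against 17.6 over all genes with a peak, and their median pileup 69 fragments, against 54. A fold over 10 was reached by 26 of them (68.4%, background 45.2%). Among those with a peak, 45.9% exceeded a fold of 20, against 44.4% over all genes with a peak. The highest were SDHAF2, which flavinates SDHA, with 68.9 from 235 fragments (206 to 267), COX10, needed for haem A, with 51.7, and UQCC3 with 51.3. NDUFAF6 had 44.8 and BCS1L, which inserts the Rieske protein, 41.1. The lowest was COX11 with 3.00 from 12 fragments, and UQCC6 had no peak within 6808 bp. The range of the assembly factors, 3.00 to 68.9, was almost that of the subunits.

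Mitochondrial ribosomal proteins had a peak at 66 of 77 genes (85.7%) with a median fold of 14.4, and 44 (57.1%) had a fold over 10. The same values over all protein-coding genes were 62.1%, 17.6 and 45.2%. The genes for cytochrome c, cytochrome c1 and the acyl carrier protein, which lie outside the symbol rule, all had low peaks. CYCS had a fold of 3.69 from 8 fragments (3.45 to 15.8), CYC1 3.96 from 15 and NDUFAB1 8.26 from 24.

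All 13 regulators on the list had a peak within 1 kb of either end, against 62.1% of all protein-coding genes. Their median fold was 30.01, against 17.6 over all genes with a peak. At listed starts, 10 of 11 had a peak, against 64.4% of all protein-coding genes. The summits counted for PPARGC1B and PPRC1 were far from a listed start, at -40853 and -12265. GABPB1, a partner chain of GABPA, had 53.5 from 150 fragments (127 to 176). TFB2M, a mitochondrial transcription factor, had 46.1 from 115. GABPA had 35.3 from the peak that it shares with ATP5PF, and PPARGC1A, a coactivator of respiratory genes, had 34.7 from 104. TFAM, which packages and transcribes mitochondrial DNA, had 30.01 from 95, NRF1 26.2 from 68 and YY1 17.9 from 50. POLRMT had the lowest fold of the list, 9.999 from 36 fragments. The lowest fold of the regulators was thus above the median of the subunits, 9.30.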

How the data were processed

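ChIP-seq libraries of 1 anti-Flag immunoprecipitate and 1 input were grouped from the labels. The submitters' processing notes name Bowtie2 2.4.1, SAMtools, MACS2 2.2.7.1, deepTools 3.5.0 and the build hg38 (GRCh38), without parameters, and the handling of duplicate reads is not given in the sources used here. The authors deposited 1 peak list, called on the single immunoprecipitate. Each peak has a fold, which is a ratio to the control, and the −log10 p-value and −log10 q-value at its summit, as deposited by the authors. The lowest −log10 q was 1.30. The display score in the authors' deposited list was not used. The input's own signal was not analysed here.

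Peaks were assigned to a gene when their interval lay within 1 kb of either outer end of a gene in a RefSeq table of GRCh38.p14. Of several peaks, the strongest by fold was taken. Listed starts and sequences came from the RefSeq promoter table, which gave 69 members. Among those without an entry were UQCRHL, NDUFS5, SDHC, ATP5MC3, NDUFB5, ATP5MF-PTCD1, ATP5MF, UQCRB, COX6C, NDUFB9, NDUFC2, ATP5F1B, ATP5F1D, COX7A1, COX4I2 and ATP5MGL. The values of 1 member are counted in the totals and not reported here. The pileup and control level of each peak follow from its fold and −log10 p if the p-value is a Poisson tail and 1 is added to both levels, and were solved for on this basis. All pileups came out whole (largest distance from a whole number 0.00914), and the lowest control level was 1.28. The computation recovered 100% of 19500 simulated peaks, and the window search did not differ from a direct search at 500 positions. Depth limits the precision of a peak through its pileup, with a median of 26 fragments over the list. The exact Poisson 95% intervals cover counting error only.

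No test was possible without replicates, so counts and medians are given beside those of all 20037 protein-coding genes. Every member could be named, and other genes only where they share a peak head to head or belong to the lists of pathway genes. TOPORS and TIMM8B were named after their values had been seen. The members and lists were chosen with earlier results of these data known. Alternatives covered thresholds, windows, gene ends, the list of members, the choice of peak and the motif. Tables were handled in pandas 2.3.3 under Python 3.11.15. Intervals came from scipy 1.17.1, arrays from numpy 2.4.6 and plots from matplotlib 3.10.9.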

Additional observations from a re-analysis of the deposited data

How the results depend on the processing

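A stricter threshold moved the counts most. With a fold over 10, 29 members kept a peak, of which 13 were in complex I, 1 in complex II, 3 in complex III, 4 in complex IV and 8 in complex V. The median fold of the members was then 15.9, with 18.0 in complex I, 14.4 in complex III, 24.5 in complex IV and 23.8 in complex V, since fewer and stronger peaks were counted. With a fold over 5, complex III had 3 members with a peak in place of 6 and a median of 14.4 in place of 7.68. With a −log10 q of 10 or more, complex III had 3 with a median of 14.4, and complex V had 10 in place of 18 with a median of 16.6 in place of 8.87. The motif decided the count of promoters, with 66 of 69 members holding GGAA and 12 holding CCGGAAGT in place of 30 with CCGGAA. With older symbols the median of complex III was 4.96. The other 110 values were within 1.5 times the reported ones. Peaks were found at 59 members within 500 bp, at 67 within 3 kb, and at 67 of 95 genes when older symbols were included. The 9 genes so added were not all subunits. NDUFAF2 is an assembly factor, and EMC8 and a read-through gene of NDUFC2 counted the peaks of COX4I1 and NDUFC2 again. COXFA4 was placed in complex I by its older symbol. Leaving out isoforms and retrocopies gave 60 of 78. Leaving out the read-through gene, an alternative chosen after seeing the data, gave 60 of 85. No paired analysis was possible because the series has 1 immunoprecipitate, and no replicate could be left out. Depth limits the weakest peaks, whose pileups reach down to 9 fragments.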
